A study of Mus musculus with 6 samples.

Results

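A set of 10 genes that mark the stem cells of the intestinal crypt, namely Lgr5, Olfm4, Ascl2, Smoc2, Axin2, Tnfrsf19, Sox9, Msi1, Lrig1 and Bmi1, were followed in jejunal intestinal epithelial cells (IEC). They were picked by symbol from their known use as crypt stem cell markers, and 10 of 10 have a row among the 19616 genes of the deposited count table. The control group held 3 wild-type mice (C1, C3 and C3-3), and the Hdac1/2-deleted group held 3 mice (H1, H5 and H9) in which villin-Cre, a recombinase driven by an epithelial promoter, deletes floxed Hdac1 and Hdac2, both groups being 3 months old and on a mixed C57BL/6J, 129SV and CD1 background. IEC were loosened from the jejunum with EDTA, so a library holds villus and crypt epithelium together with any other cells that came off, and 1 library was sequenced per mouse. Villin-Cre acts all along the epithelium from development on, so its action is not limited to stem cells. From cultured crypts of such mice, the study proposes that a remaining Hdac1 or Hdac2 allele is lost during growth. When and how completely the crypt cells of these libraries lost both genes was not measured. HDAC1 and HDAC2 are histone deacetylases, enzymes that remove acetyl groups from chromatin and act in repressor complexes.

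Crypt base columnar stem cells lie between Paneth cells at the bottom of the crypt and renew the epithelium throughout life. They depend on Wnt ligands, whose signal R-spondins strengthen through receptors of the Lgr family, on Notch ligands from their neighbours and on EGF-family growth factors, while BMP signals restrain them higher up the crypt. Lgr5, Ascl2, Olfm4, Smoc2 and Tnfrsf19 mark the cycling stem cells. Bmi1 and Lrig1 have been used for slower-dividing or broader populations, and Axin2, Sox9 and Msi1 reach into the transit-amplifying compartment.

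Total counts on genes ranged from 58017009 to 65902344 in the control libraries and from 36111035 in H5 to 65230566 in the Hdac1/2-deleted libraries. Hdac1 fell from 40.8 ± 7.33 to 3.77 ± 1.16 CPM (counts per 1000000 counts of the library, TMM-scaled; mean ± SD, n = 3), whereas Hdac2 stood at 27.7 ± 4.72 CPM in control and 24.5 ± 2.70 CPM in Hdac1/2-deleted IEC (log2 fold change -0.18, adjusted p = 0.44 by edgeR's quasi-likelihood test). Counts are per gene and not per exon, so the Hdac2 value does not show whether its floxed exons were missing, and the groups are named as labelled. The 8 pan-epithelial markers summed to between 10537 and 12178 CPM in control and between 8876 and 10917 CPM in Hdac1/2-deleted libraries. Singly they moved both ways, with a log2 fold change above 0 for 4 and below 0 for 4. Krt18 rose from 170 ± 11.7 to 344 ± 30.9 CPM (1.02, adjusted p = 0.00059), and Epcam went from 1664 ± 166 to 1081 ± 124 CPM (-0.62, adjusted p = 0.017). C3 was the only library with more than 13 counts on 4 Y-linked genes (3082 counts), so the mice of the control group were not of 1 sex. C3 also carried the highest summed level of 10 leukocyte markers, 140 CPM, against 49.7 to 117 in the other control libraries and 34.1 to 63.6 CPM in the Hdac1/2-deleted ones.

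Sequences are shown for the marker that the study itself measured by qPCR and for 3 markers with different behaviour, so that the regions behind the names can be seen. The study's Lgr5 primers match annotated Lgr5 transcripts and span 143 bases across the junction of exons 15 and 16 of its 18-exon transcript, from base 1647 to base 1789.
Lgr5 upstream primer: cgagccttacagagcctgatacc
Lgr5 downstream primer: ttgccgtcgtctttattccattgg

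Promoter windows of 300 bases, 250 before and 50 after the start of transcription, came from RefSeq (GRCm38.p6), where 6 of the 10 markers were matched with 7 windows. Those of Olfm4 and of 1 Tnfrsf19 start are shown because both genes fell. That of Axin2, the textbook Wnt feedback gene, is shown because it did not pass the test. The Olfm4 and Tnfrsf19 windows shown lie inside the annotated gene spans given below, downstream of the first annotated base of each gene. Capitals mark letters of a TCF/LEF element, the DNA word read by the factors at the end of the Wnt pathway, searched as CTTTGAA or CTTTGAT or CTTTGTA or CTTTGTT on both strands.
Olfm4, chr14:80000052-80000351, plus strand: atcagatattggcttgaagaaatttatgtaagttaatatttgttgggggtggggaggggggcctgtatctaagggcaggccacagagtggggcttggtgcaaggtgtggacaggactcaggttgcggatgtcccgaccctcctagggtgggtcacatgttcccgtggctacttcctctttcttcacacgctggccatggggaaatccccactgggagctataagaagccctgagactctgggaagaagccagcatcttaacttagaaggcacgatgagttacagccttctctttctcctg
Tnfrsf19, chr14:61037938-61038237, minus strand: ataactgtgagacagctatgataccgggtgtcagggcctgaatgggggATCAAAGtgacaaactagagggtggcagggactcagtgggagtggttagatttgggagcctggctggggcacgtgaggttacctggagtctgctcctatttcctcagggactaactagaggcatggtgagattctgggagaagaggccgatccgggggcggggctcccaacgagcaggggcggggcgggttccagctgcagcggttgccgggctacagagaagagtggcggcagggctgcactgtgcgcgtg
Axin2, chr11:108920099-108920398, plus strand: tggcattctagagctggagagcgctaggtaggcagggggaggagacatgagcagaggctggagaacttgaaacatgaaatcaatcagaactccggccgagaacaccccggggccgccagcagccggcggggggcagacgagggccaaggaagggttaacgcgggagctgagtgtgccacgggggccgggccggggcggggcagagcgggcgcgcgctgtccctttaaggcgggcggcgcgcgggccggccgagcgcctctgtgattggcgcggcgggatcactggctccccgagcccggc
Of the 7 windows, 1 held such a word, the Tnfrsf19 window shown, at bases 49 to 55 (first base at -202 from the start of transcription), and 16.9% of all 32851 promoter windows of the same length held at least 1. The E-box CAGCTG, a word of the kind read by basic helix-loop-helix factors such as Ascl2, occurred in the same window at bases 241 to 246 and in 16.3% of all windows, and it does not overlap the TCF/LEF word. CpG pairs, the sites of DNA methylation, numbered 5 in the Olfm4 window and 13 and 14 in the Tnfrsf19 windows. The other windows held more, with 23 in Ascl2, 23 in Bmi1, 31 in Axin2 and 35 in Lrig1, against a median of 7 over all promoters (quartiles 3 and 20). These letters describe the windows and were not tied to any measurement of binding or methylation.

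Among the 10 markers, Lgr5, Olfm4 and Tnfrsf19 fell and Msi1 rose in Hdac1/2-deleted IEC. The remaining 6, Ascl2, Smoc2, Axin2, Sox9, Lrig1 and Bmi1, missed at least 1 of the 2 limits for a call, 0.05 for the adjusted p and 2-fold for the size of the change. All 10 passed the filter on low counts. The 3 decreased markers stand beside 12.7% of the 15618 tested genes that were decreased, and the 1 increased marker beside 12.4% that were increased. By the adjusted p alone, 4 markers were lower, where the share of all tested genes was 20.3%, and 1 was higher, where it was 20.5%. The median log2 fold change of the 10 markers was -0.82, with 8 values below 0, against a median of -0.01 over all tested genes. Levels did not overlap between the groups for 6 markers, 5 of them lower and 1 higher in Hdac1/2-deleted IEC, and 26.6% and 26.7% of all tested genes were separated in the same way in each direction. In RNA from a mixed cell fraction, fewer cells of a type and less RNA per cell cannot be told apart.

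**Figure D1:**
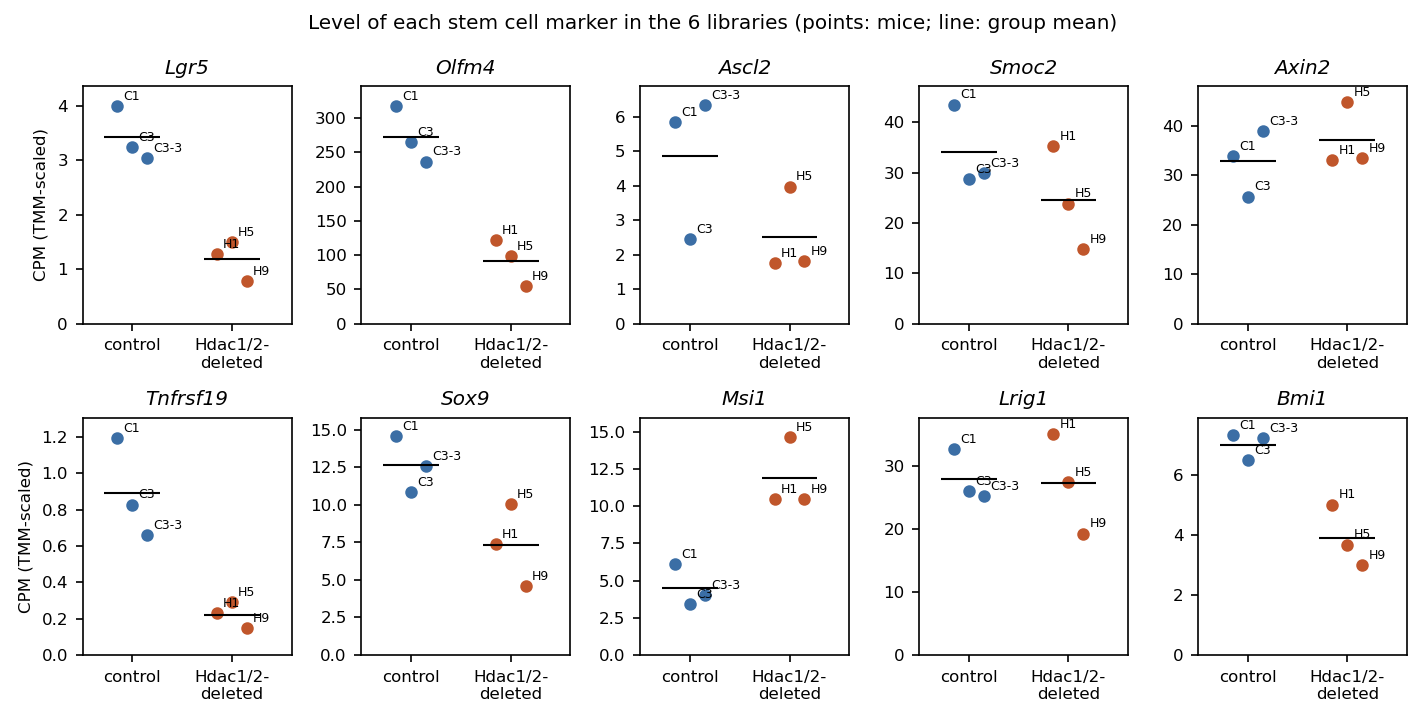
Level of each of the 10 markers in CPM (y axis from 0, TMM-scaled) in the 3 control (blue) and 3 Hdac1/2-deleted (orange) mice, with 1 point per mouse and a line at the group mean. The groups are fully apart for Lgr5, Olfm4, Tnfrsf19, Sox9 and Bmi1, which are lower in Hdac1/2-deleted IEC, and for Msi1, which is higher, while the other 4 markers overlap.

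Lgr5 (ENSMUSG00000020140, chromosome 10 from 115450311 to 115587780 on the minus strand of GRCm38) encodes the R-spondin receptor that defines the crypt base columnar cell. Its level was 4.0, 3.24 and 3.05 CPM in C1, C3 and C3-3 and 1.28, 1.5 and 0.780 CPM in H1, H5 and H9. Every Hdac1/2-deleted library lay below every control library. The mean went from 3.43 ± 0.504 to 1.19 ± 0.369 CPM, a 2.90-fold decrease (log2 fold change -1.54, SE 0.33, adjusted p = 0.0053). These levels rest on few reads, from 162 to 265 counts in control and from 48 to 95 counts in Hdac1/2-deleted libraries. The exact Poisson intervals (95%, covering counting error only) were 138 to 189 counts in the lowest control library, C3-3, and 76.9 to 116 in the Hdac1/2-deleted library with most counts, H1. They are not scaled for library size, and in CPM the highest Hdac1/2-deleted library was H5.

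Olfm4 (ENSMUSG00000022026, chromosome 14 from 79984081 to 80023139, plus strand) encodes a secreted olfactomedin glycoprotein and has long been used as a marker of the same cells. It stood at 317, 265 and 237 CPM in C1, C3 and C3-3 and at 121, 98.3 and 54.6 CPM in H1, H5 and H9. The groups were again apart, and the decrease from 273 ± 40.9 to 91.4 ± 33.9 CPM was 2.99-fold (log2 fold change -1.58, SE 0.28, adjusted p = 0.0024). Olfm4 supplied between 64.9% and 71.1% of the summed CPM of the 10 markers in control libraries and between 38.2% and 48.4% in Hdac1/2-deleted ones, so a plain sum over the set is mostly this gene. In the annotation 153 of its exon bases are shared with the non-coding gene Gm6999 on the same strand, which has no row of its own here.

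Tnfrsf19 (ENSMUSG00000060548, chromosome 14 from 60963875 to 61046490, minus strand), also called Troy, encodes a receptor of the tumour necrosis factor family found on Lgr5-positive cells. It had the fewest counts of the 10, with 79, 46 and 35 counts in the control libraries and 17, 11 and 9 counts in the Hdac1/2-deleted ones. Scaled to CPM, these are 1.19, 0.828 and 0.659 against 0.229, 0.290 and 0.146, with no overlap. Its fall from 0.893 ± 0.273 to 0.222 ± 0.0720 CPM was the largest change of the set (4.07-fold, log2 fold change -2.02, SE 0.45, adjusted p = 0.0063). The counting interval for the 35 reads of C3-3, the lowest control library, runs from 24.4 to 48.7 counts. That for the 17 reads of H1, the Hdac1/2-deleted library with most counts, runs from 9.90 to 27.2 counts. These intervals are not scaled for library size, so they cannot be compared between libraries. In CPM the highest Hdac1/2-deleted library was H5. For the 9 reads of H9 the interval runs from 4.12 to 17.1 counts.

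Ascl2 (ENSMUSG00000009248, chromosome 7 from 142966829 to 142969264, minus strand), a basic helix-loop-helix factor that is a Wnt target and a master regulator of the stem cell state, varied most between mice. Its level was 5.84, 2.45 and 6.34 CPM in C1, C3 and C3-3 and 1.75, 3.98 and 1.8 CPM in H1, H5 and H9. C3 lay below H5, so the groups overlapped, and the coefficient of variation was 43.4% in control and 50.5% in Hdac1/2-deleted IEC. The difference between 4.88 ± 2.12 and 2.51 ± 1.27 CPM did not pass the test (log2 fold change -0.97, SE 0.45, 95% interval -1.99 to 0.05, adjusted p = 0.12). Single libraries decided this call, since Ascl2 was decreased without C3 (log2 fold change -1.28, adjusted p = 0.037) and without H5 (-1.45, adjusted p = 0.041). The change was smaller without C1 (-0.81, adjusted p = 0.25), C3-3 (-0.72, 0.31), H1 (-0.76, 0.29) or H9 (-0.77, 0.28).

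Smoc2 (ENSMUSG00000023886, chromosome 17 from 14279506 to 14404790, plus strand), which encodes a secreted calcium-binding matrix protein enriched in Lgr5-positive cells, gave 43.6, 28.8 and 29.9 CPM in C1, C3 and C3-3. In H1, H5 and H9 it gave 35.3, 23.9 and 14.8 CPM, with H1 above C3 and C3-3. The difference between 34.1 ± 8.24 and 24.7 ± 10.3 CPM did not pass the test (log2 fold change -0.47, SE 0.31, 95% interval -1.18 to 0.25, adjusted p = 0.27).

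Axin2 (ENSMUSG00000000142, chromosome 11 from 108920349 to 108950783, plus strand) encodes a scaffold of the β-catenin destruction complex that Wnt signalling induces as its own brake. It stood at 33.9, 25.6 and 39.0 CPM in C1, C3 and C3-3 and at 33.1, 44.8 and 33.5 CPM in H1, H5 and H9. The groups overlapped, and the values of 32.8 ± 6.73 and 37.1 ± 6.64 CPM did not pass the test for a difference (log2 fold change 0.18, SE 0.19, adjusted p = 0.50). The 95% interval of the change, -0.26 to 0.62, corresponds to a ratio of 0.833 to 1.53, which leaves out a fall of the size fitted for Lgr5. The annotated antisense gene Gm11670 shares 209 exon bases with Axin2 and has no row of its own here. Whether the counting used the strand is not given in the sources used here, so reads from the shared bases cannot be assigned.

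Cells other than epithelium were measured alongside, because Smoc2, Axin2 and Tnfrsf19 are also used by stromal cells. Of 12 mesenchymal markers 10 were tested, with 4 decreased and 1 increased, beside 12.7% and 12.4% of all tested genes. The log2 fold change was below 0 for 9 of the 10, with a median of -0.90. The summed level of the 12 ranged from 16.9 CPM in C3-3 to 74.8 CPM in C1. In Hdac1/2-deleted libraries it ranged from 19.5 to 30.6 CPM. No marker was at 0 in every library. The smooth muscle gene Myh11 differed between the control mice, being at 25.4 and 12.6 CPM in C1 and C3, at 0.452 CPM in C3-3 and at 0 to 0.0135 CPM in the Hdac1/2-deleted libraries. The fibroblast gene Pdgfra did not exceed 0.664 CPM in any library. Pdgfrb, a pericyte gene and the only tested mesenchymal marker with a value above 0, rose from 1.62 ± 0.829 to 13.0 ± 5.52 CPM. The part of these cells in the values of the 3 markers was not tested.

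Msi1 (ENSMUSG00000054256, chromosome 5 from 115429599 to 115455698, plus strand) encodes Musashi-1, an RNA-binding protein of neural and intestinal progenitors that represses translation of Notch inhibitors. It was the single increased marker. Its level was 6.10, 3.40 and 4.01 CPM in C1, C3 and C3-3 and 10.5, 14.6 and 10.5 CPM in H1, H5 and H9, with every Hdac1/2-deleted library above every control library. The mean went from 4.50 ± 1.41 to 11.9 ± 2.4 CPM, a 2.63-fold increase (log2 fold change 1.39, SE 0.27, adjusted p = 0.0034). Counts ranged from 189 to 404 in control and from 556 to 777 in Hdac1/2-deleted libraries.

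Sox9 (ENSMUSG00000000567, chromosome 11 from 112782224 to 112787760, plus strand), a Wnt-dependent transcription factor of progenitors that is also required for Paneth cells, gave 14.6, 10.8 and 12.6 CPM in C1, C3 and C3-3. In H1, H5 and H9 the values were 7.36, 10.1 and 4.60 CPM, with H5 just under the lowest control library. The groups did not overlap, but the difference between 12.7 ± 1.87 and 7.34 ± 2.73 CPM stood at the limit of the test (log2 fold change -0.79, SE 0.28, adjusted p = 0.052) and was 1.73-fold. The limits were both met without H5 (log2 fold change -1.07, adjusted p = 0.021). Neither was met without C1 (adjusted p = 0.13), C3 (0.062), C3-3 (0.11), H1 (0.12) or H9 (0.13), and without H9 the log2 fold change was -0.54. Paneth cell markers fell beside it. Of 8 markers tested 8 were decreased, beside 12.7% of all tested genes. Their summed level went from between 3320 and 5324 CPM in control to between 182 and 282 CPM in Hdac1/2-deleted libraries. Lyz1, the Paneth lysozyme, fell from 1561 ± 695 to 54.9 ± 11.2 CPM (log2 fold change -4.83) and was at 42.0 CPM in the lowest Hdac1/2-deleted library. The part of Paneth cells in the Sox9 value was not tested.

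Bmi1 (ENSMUSG00000026739, chromosome 2 from 18677018 to 18686629, plus strand) encodes a subunit of Polycomb repressive complex 1 that silences the Cdkn2a locus. It stood at 7.34, 6.50 and 7.25 CPM in C1, C3 and C3-3, the tightest control group of the set with a coefficient of variation of 6.53%, and at 5.02, 3.69 and 2.99 CPM in H1, H5 and H9. The groups were apart. The level was 7.03 ± 0.459 and 3.90 ± 1.03 CPM (log2 fold change -0.85, SE 0.25, adjusted p = 0.025), which passed the limit on p but, at 1.8-fold, not that on size. Without H1 it met both limits (log2 fold change -1.07, adjusted p = 0.015). Leaving out another library raised the adjusted p, to 0.046 without C3. It was above 0.05 without C1 (0.055), C3-3 (0.076), H5 (0.072) or H9 (0.085).

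Lrig1 (ENSMUSG00000030029, chromosome 6 from 94604529 to 94700158, minus strand), a transmembrane protein that turns down ErbB receptors, stood at 32.7, 25.9 and 25.2 CPM in C1, C3 and C3-3. The Hdac1/2-deleted libraries lay on both sides of these values, with 35.1, 27.4 and 19.2 CPM in H1, H5 and H9. Levels of 27.9 ± 4.12 and 27.2 ± 7.91 CPM did not pass the test for a difference (log2 fold change -0.04, SE 0.22, adjusted p = 0.91). The 95% interval, -0.54 to 0.47, corresponds to a ratio of 0.688 to 1.39, and the sign of so small a value turned under 2 of the scalings and without C1 or H9. Lrig1 shares 144 exon bases with Slc25a26 on the opposite strand, a gene with 2616 counts over the 6 libraries, so some of the reads could belong to either gene.

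**Figure D2:**
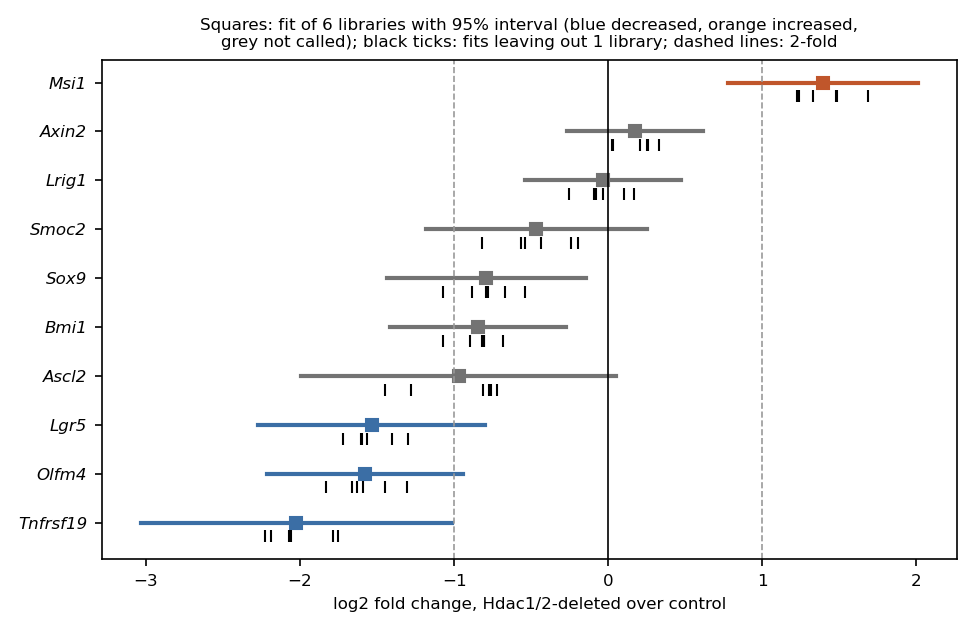
Log2 fold change of Hdac1/2-deleted over control IEC for each marker (squares, blue for decreased, orange for increased, grey for not called) with its 95% interval, and the same value refitted without each library in turn (black ticks). Tnfrsf19, Olfm4 and Lgr5 lie at -2.02, -1.58 and -1.54 and Msi1 at 1.39, beyond the dashed 2-fold lines also in each fit without 1 library.

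The 3 decreased markers and Msi1 met both limits in each of the 6 fits that left out 1 library. Lgr5 then ranged from -1.72 to -1.30, Olfm4 from -1.83 to -1.31, Tnfrsf19 from -2.23 to -1.75 and Msi1 from 1.22 to 1.69 on the log2 scale. Adjusted p-values in these fits were at most 0.018 for Lgr5, 0.014 for Olfm4, 0.028 for Tnfrsf19 and 0.016 for Msi1. The number of decreased markers rose from 3 to 5 without H5, where Ascl2 and Sox9 were added, and to 4 without C3 (Ascl2) or without H1 (Bmi1). Without C3, the library with Y-linked transcripts, Lgr5 was at -1.57, Olfm4 at -1.59, Tnfrsf19 at -2.07 and Msi1 at 1.24.

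Levels of different markers were set against each other per length, as CPM per kb of annotated exon. In control IEC Olfm4 led with 92.2 ± 13.8 CPM per kb. Axin2 (5.96), Lrig1 (5.0) and Smoc2 (4.90) followed, and neighbours in this order overlapped over the 3 mice. Sox9 (3.06), Ascl2 (3.01) and Bmi1 (1.77) came next, again with overlap between neighbours, and Sox9 lay fully below Smoc2. Msi1 (0.776), Lgr5 (0.334 ± 0.0491) and Tnfrsf19 (0.189) closed it, each without overlap with the marker above. Exon length was taken over all annotated transcripts (10264 bases for Lgr5), so a gene with long rarely used exons is placed too low.

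In Hdac1/2-deleted IEC Olfm4 still led, with 30.9 ± 11.5 CPM per kb, and Lgr5 (0.116) and Tnfrsf19 (0.0468) still came last, each without overlap with its neighbour. Between them Axin2 (6.74), Lrig1 (4.88), Smoc2 (3.55), Msi1 (2.05), Sox9 (1.77), Ascl2 (1.55) and Bmi1 (0.981) each overlapped with the next. Msi1 moved from the eighth place to the fifth, past Sox9, Ascl2 and Bmi1, though its range there overlapped those of Sox9 and Ascl2.

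**Figure D3:**
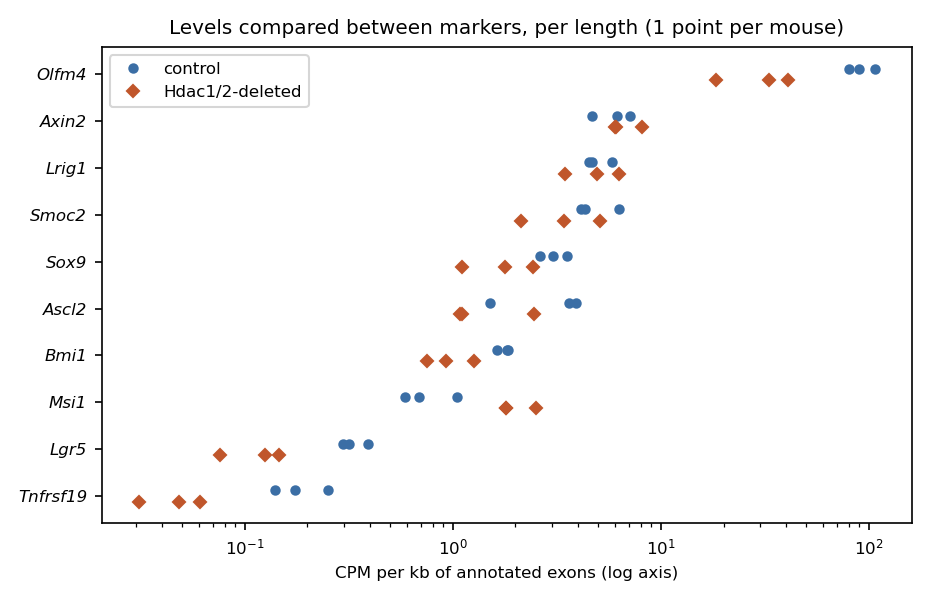
Level of each marker per kb of annotated exon (x axis, log scale), with 1 point per mouse, circles for control and diamonds for Hdac1/2-deleted IEC, ordered by the control mean. Olfm4 lies above the rest in both groups and Lgr5 and Tnfrsf19 below, at 0.334 and 0.189 CPM per kb in control and 0.116 and 0.0468 in Hdac1/2-deleted IEC.

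Ratios taken within a library show how far the markers moved apart, since they do not depend on the scaling between libraries. Olfm4 over Lgr5 was 6.31, 6.35 and 6.28 on the log2 scale in C1, C3 and C3-3 and 6.56, 6.03 and 6.13 in H1, H5 and H9. This ratio overlapped between the groups, with means of 6.31 and 6.24 and a difference of -0.07 (exact permutation test, two-sided, p = 0.8). Msi1 over Lgr5 changed most, from 0.61, 0.07 and 0.39 to 3.03, 3.29 and 3.75, a difference of 3.00 on the log2 scale. Axin2 over Lgr5 was higher by 1.76, Lrig1 by 1.51, Smoc2 by 1.04, Sox9 by 0.73 and Bmi1 by 0.69, each without overlap, and Ascl2 by 0.62 with overlap. Tnfrsf19 over Lgr5 was lower by 0.45 (control mean -1.97, Hdac1/2-deleted mean -2.42), also without overlap. For the 7 ratios without overlap the exact p was 0.1, the smallest that 3 mice against 3 allow, and 0.13 after Benjamini-Hochberg adjustment over the 9 ratios. Of 15617 other tested genes, 74% were separated upwards and 2.45% downwards in the same ratio to Lgr5, beside 6 and 1 of the 9 markers.

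The libraries of a group differed in the whole set. C1 was the highest control library for 8 of the 10 markers, and H9 the lowest Hdac1/2-deleted library for 8 of 10. The median deviation of the 10 markers from their own control mean was 0.23, -0.16 and -0.13 on the log2 scale in C1, C3 and C3-3. In H1, H5 and H9 it was -0.63, -0.40 and -1.27. H9 reached -2.13 for Lgr5, -2.31 for Olfm4 and -2.57 for Tnfrsf19, yet Msi1 was as high there (1.26) as in H1 (1.26).

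**Figure D4:**
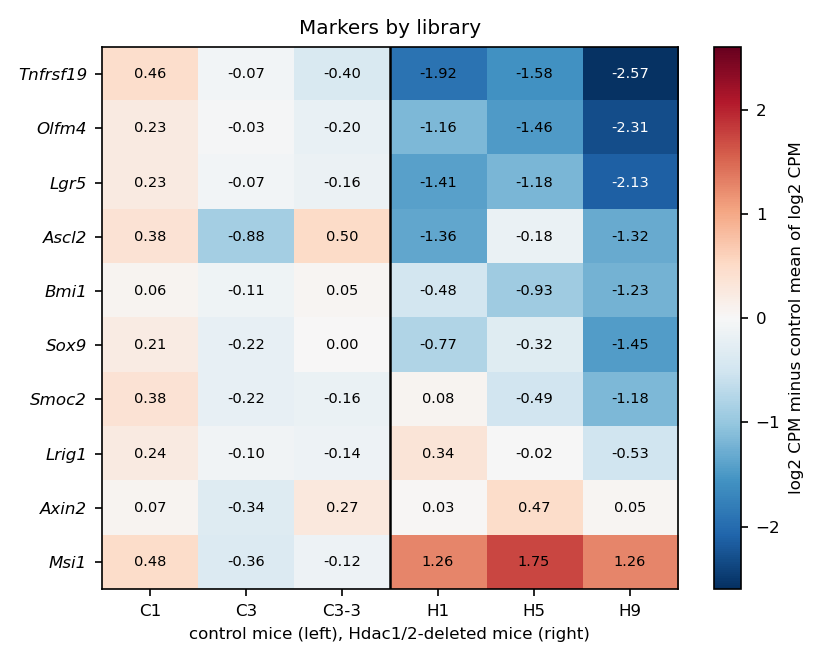
Log2 CPM of each marker in each library minus its control mean, with blue for lower and red for higher values. The column of H9 is the bluest, with -2.57 for Tnfrsf19 and -2.31 for Olfm4, and the row of Msi1 is red in the 3 Hdac1/2-deleted mice, at 1.26 to 1.75.

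Proliferation genes followed part of that order between mice. Their summed level (20 genes) was 763 CPM in C1 against 460 in C3 and 526 in C3-3, and 826 and 824 CPM in H1 and H5 against 502 in H9. Of the 20 genes 2 were increased and 0 decreased by edgeR's test, beside 12.4% and 12.7% of all tested genes. The median log2 fold change of the 20 genes was 0.31, and it ranged from 0.15 without H1 to 0.56 without C1. At the adjusted p alone, 3 were higher and 0 lower, beside 20.5% and 20.3% of all tested genes. At an unadjusted p under 0.05 the counts were 4 and 0, with 0 decreased also by DESeq2 and limma-voom. Rrm2, a subunit of ribonucleotide reductase, went from 11.6 ± 5.37 to 27.7 ± 9.36 CPM (log2 fold change 1.25, adjusted p = 0.030), and Mcm2, of the replicative helicase, from 22.1 ± 7.07 to 44.9 ± 8.89 CPM (1.02, adjusted p = 0.010). The count fell to 0 without C3, C3-3, H1 or H5. The part of cycling cells in the marker values was not tested.

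The genes whose pattern over the 6 libraries was most like that of Lgr5 were named by the smallest root mean square difference of log2 CPM, each gene taken relative to its own control mean, among 11074 candidates. They were Tmco6 (0.11), 1110012L19Rik (0.13) and Far2 (0.13). Those nearest to Olfm4 were Zfp12 (0.13), Tmco6 (0.14) and Efna1 (0.16). Tmco6 stood at 7.27 CPM in control and 2.56 CPM in Hdac1/2-deleted IEC, and Far2 at 43.2 and 15.7 CPM.

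Of 16 other genes of the Lgr5-positive cell, 3 were increased, 3 were decreased and 10 were not called, beside 12.4% and 12.7% of all tested genes. Their median log2 fold change was -0.05, and it went from -0.38 without H5 to 0.17 without H9. Mex3a, an RNA-binding protein of a slowly cycling Lgr5-positive subset, was at 1.06, 1.04 and 0.640 CPM in control and 8.37, 14.5 and 8.57 CPM in Hdac1/2-deleted libraries (log2 fold change 3.51, adjusted p = 9e-05). Igfbp4, which binds insulin-like growth factors, rose from 7.49 ± 0.778 to 55.6 ± 21 CPM (2.89, adjusted p = 9.2e-05). Nr2e3, a nuclear receptor, fell from 1.79 ± 0.766 to 0.331 ± 0.0698 CPM (-2.45, adjusted p = 0.0022), and the urea transporter Slc14a1 from 3.02 ± 0.732 to 0.953 ± 0.104 CPM (-1.66, adjusted p = 0.0028). The increased genes numbered 5 under the 2 scalings that used library totals or the pan-epithelial markers, and also without C1, H1 or H9. The decreased genes numbered 2 under these 2 scalings and without C1 or H9, and 4 without C3, C3-3 or H1.

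Genes used for reserve or regenerating stem cells were tested for 9 of 11. Of these, 3 were increased and 1 decreased, beside 12.4% and 12.7% of all tested genes, and the median log2 fold change was 0.72. Il1rn, the interleukin-1 receptor antagonist, rose from 0.319 ± 0.0702 to 4.66 ± 1.67 CPM (log2 fold change 3.87, adjusted p = 1e-04), and the alarmin Il33 from 15.5 ± 5.58 to 56.6 ± 6.82 CPM (1.87, adjusted p = 0.00084). Both are cytokine-pathway genes with wider use in injured epithelium. Spp1, which encodes osteopontin, fell from 1.61 ± 1.11 to 0.367 ± 0.172 CPM (-2.09, adjusted p = 0.038). It ranged from 0.377 CPM in C1 to 2.52 in C3-3, and it was not decreased without C3, C3-3, H1, H5 or H9, nor by limma-voom.

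Wnt target and feedback genes were tested for 13 of 14. Of these, 3 were decreased and 0 increased, beside 12.7% and 12.4% of all tested genes, with a median log2 fold change of 0.16. Sp5, a transcription factor induced by Wnt, was at 16.2, 32.8 and 18.8 CPM in control and 1.61, 1.16 and 2.1 CPM in Hdac1/2-deleted libraries. That is a log2 fold change of -3.79 (adjusted p = 7.6e-05). Apcdd1, a membrane inhibitor of Wnt, fell from 2.25 ± 1.31 to 0.122 ± 0.0640 CPM (-4.11, adjusted p = 0.00067), with 2 to 11 counts in the Hdac1/2-deleted libraries. Rnf43, the E3 ligase that removes Frizzled receptors and that R-spondin with Lgr receptors holds back, fell from 42.7 ± 8.46 to 20.8 ± 5.44 CPM (-1.03, adjusted p = 0.0060). By the adjusted p alone 1 gene was higher, beside 20.5% of all tested genes, and at an unadjusted p under 0.05 there were 5. DESeq2, limma-voom and scaling by library totals each called 1 increased, and 2 were increased without C1 and 1 without C3. The decreased genes numbered 2 under scaling by library totals or by pan-epithelial markers, with a minimum of 10 counts in every library, and without C3 or C3-3. The median ranged from 0.00 without H5 to 0.54 without H9.

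Of the Wnt receptors and transducers 22 of 24 were tested, with 3 increased and 5 decreased, beside 12.4% and 12.7% of all tested genes. The median log2 fold change was 0.09. The 5 decreased genes were Frizzled receptors, the docking proteins for Wnt, of which 7 were tested. The other two, named after their values were seen, were not called, with log2 fold changes of 0.19 for Fzd4 (adjusted p = 0.57) and 0.37 for Fzd7 (adjusted p = 0.13), whose levels were higher without overlap. Fzd2 fell from 0.913 ± 0.173 to 0.107 ± 0.0687 CPM (log2 fold change -3.18, adjusted p = 0.0015), with 4 to 7 counts in the Hdac1/2-deleted libraries. Fzd1 fell from 4.58 ± 0.823 to 0.667 ± 0.0680 CPM (-2.78, adjusted p = 0.00014). With a minimum of 10 counts in every library, 4 of the receptors and transducers were decreased and 2 increased. Fzd5, named after its values were seen, went from 176 ± 24.7 to 79.6 ± 1.81 CPM (-1.15, adjusted p = 0.00037). Tcf7l1, the TCF that mostly represses, rose from 0.181 ± 0.0978 to 2.18 ± 0.433 CPM (3.55, adjusted p = 0.00042), and the co-receptor Lrp5 from 100 ± 7.50 to 251 ± 30.0 CPM (1.32, adjusted p = 0.00019).

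Lgr4, the R-spondin receptor shared by stem cells and their progeny, was at 50.5, 54.4 and 44.6 CPM in control and 63.9, 61.9 and 55.7 CPM in Hdac1/2-deleted libraries. Those groups did not overlap, but the change of 0.28 on the log2 scale did not pass the test (adjusted p = 0.13). Lgr6 was not analysed here.

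Ligands and antagonists of the niche were tested for 17 of 24. Of these, 5 were increased and 2 decreased, beside 12.4% and 12.7% of all tested genes, and the median log2 fold change was 0.38. Jag2, a Notch ligand, stood at 2.58, 1.58 and 1.30 CPM in control and 48.2, 42.9 and 44.8 CPM in Hdac1/2-deleted libraries (log2 fold change 4.63, adjusted p = 7.1e-06). Ereg, an EGF-family ligand, rose from 0.616 ± 0.0204 to 4.52 ± 1.32 CPM (2.87, adjusted p = 0.00021). Wnt3, the Wnt ligand that Paneth cells supply to stem cells, fell from 1.97 ± 0.591 to 0.597 ± 0.373 CPM (-1.69, adjusted p = 0.020), and Wnt6 from 3.44 ± 0.444 to 1.02 ± 0.339 CPM (-1.74, adjusted p = 0.0027). Without H5 or H9 the decreased ligands numbered 1, and the median was 0.04 without C1 and 0.05 without H9. With no filter on low counts it was 0.11.

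ErbB receptors, which take up the EGF-family ligands and which Lrig1 restrains, were tested for 3 of 4. Erbb3 was at 1312, 975 and 916 CPM in control and 271, 388 and 308 CPM in Hdac1/2-deleted libraries, far apart (log2 fold change -1.73, SE 0.21, adjusted p = 0.00029). Erbb2 was at 247 ± 30.7 and 159 ± 33.8 CPM (-0.63, adjusted p = 0.024, below 2-fold), and Egfr at 28.2 ± 3.54 and 33.8 ± 2.46 CPM (0.26, adjusted p = 0.19). Erbb4 was not analysed here.

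The closest relatives of the markers were tested for 7 of 11. Of these, 2 were increased and 0 decreased, beside 12.4% and 12.7% of all tested genes, and the median log2 fold change was 0.26. At the adjusted p alone 2 were higher and 1 lower, beside 20.5% and 20.3% of all tested genes. The numbers were the same at an unadjusted p under 0.05, and DESeq2 and limma-voom also called 0 decreased. Smoc1, the sister gene of Smoc2, rose from 0.365 ± 0.153 to 2.04 ± 0.990 CPM (log2 fold change 2.45, adjusted p = 0.0036). Pcgf2, which can take the place of Bmi1 in Polycomb complexes, rose from 11.6 ± 0.888 to 36.7 ± 5.65 CPM (1.66, adjusted p = 1e-04). Msi2, the relative of Msi1, was at 11.5 ± 1.46 and 11.1 ± 2.48 CPM (-0.06, adjusted p = 0.86).

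**Figure D5:**
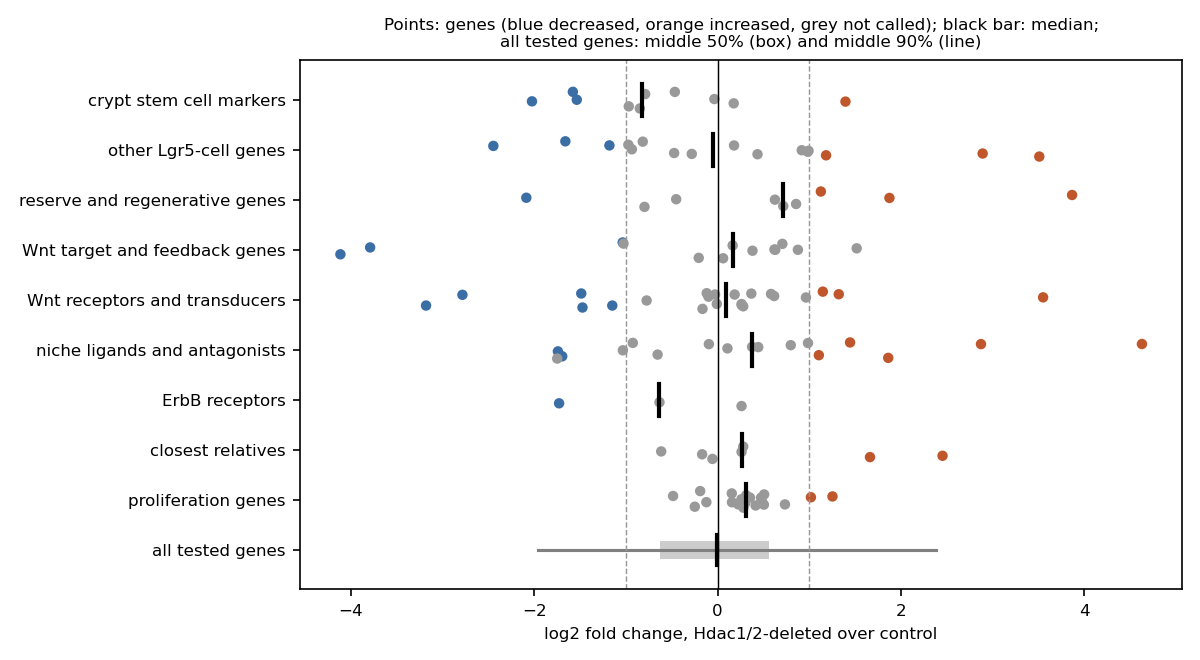
Log2 fold change of each tested gene of the marker set and of 8 related gene lists (points, blue for decreased, orange for increased, grey for not called), with a black bar at the median, above the middle 50% and middle 90% of all tested genes. The marker set has a median of -0.82, with 2 of its 10 genes above 0, and each of the 8 lists also holds genes on both sides of 0.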

How the data were processed

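RNA was extracted from EDTA-enriched jejunal IEC, samples with an RNA integrity number over the study's limit were kept, and directional poly(A) libraries were sequenced in pairs. The authors deposited raw read counts per gene. The study's methods name STAR and GRCm38, whereas the submitters' processing notes list mm9 with STAR 2.4.0f1 and bcl2fastq 1.8.4, and the counting program, annotation and strand setting are not given in the sources used here. The table has no coordinates, and positions and exon lengths came from GENCODE mouse release 21 (GRCm38). The authors' normalized values, fold changes and p-values were not used.

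The smallest total count of a gene in the table was 10. Counts were filtered with filterByExpr (15618 genes), TMM-normalized (factors 0.892 to 1.14) and fitted with edgeR 4.0.16 (robust quasi-likelihood, prior count 0.125) in R 4.3.3. Benjamini-Hochberg adjustment ran over all tested genes, and a call needed an adjusted p up to 0.05 together with a 2-fold change, the study's limits. An exact permutation test of 3 against 3 mice cannot go below p = 0.1. Alternatives used limma 3.58.1, DESeq2 1.42.0, other scalings and filters, and each library left out in turn. Plots used matplotlib 3.10.9. The steps were tested on simulated data. Chi-square values per gene between libraries of a group were 102 to 277, so no library was a copy of another.

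The markers and lists were chosen with earlier results of these data known. Named were all markers, Hdac1 and Hdac2, and the called genes of each list (at most the 2 largest changes in each direction). Lgr4, Lgr6 and the ErbB receptors were named whether called or not. Also named were the 3 genes nearest to Lgr5 and to Olfm4 in pattern, among genes averaging 1 or more on the log2 CPM scale. Outside this rule, Rnf43, Msi2, Fzd4, Fzd5 and Fzd7 were named in addition, as were the cell type genes Krt18, Epcam, Myh11, Pdgfra, Pdgfrb and Lyz1.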

Additional observations from a re-analysis of the deposited data

How the results depend on the processing

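Lgr5, Olfm4 and Msi1 met both limits under all 15 alternatives that refitted them and Tnfrsf19 under the 14 that tested it, since a minimum of 10 counts in every library removed it. The number of decreased markers was 3 to 5 over the fits without 1 library, reaching 5 without H5. The other counts of markers stayed within 1.5 times their value, and the increased marker numbered 1 under each alternative. Lrig1 changed sign to 0.16 with library totals only, to 0.18 with scaling by pan-epithelial markers, and over the fits without 1 library it ranged from -0.26 to 0.17, positive without C1 (0.10) and without H9 (0.17). Scaling by library totals moved the median log2 fold change of all genes by 0.19 (61.6% of calls increased, against 49.4%), and scaling by pan-epithelial markers by 0.20 (62.0%). Relative to these shifts the decreased markers stayed decreased. Under these scalings the adjusted p was 0.11 and 0.15 for Bmi1, and 0.16 and 0.18 for Sox9. For Sox9 it was 0.025 by DESeq2 and 0.031 by limma-voom, below 2-fold. Counts of 9 to 95 reads in Hdac1/2-deleted libraries limit Tnfrsf19 and Lgr5. No paired analysis was possible because the mouse names share at most 1 number between the groups.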
